A study of Mus musculus with 16 samples.

Results

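The mouse mitochondrial genome carries 13 mRNAs, 22 tRNAs and 2 rRNAs, and these 37 genes were followed in liver RNA from mice given a glucagon receptor agonist on diets of different protein content. They were taken as every gene whose identifier has a symbol beginning with mt- in the GENCODE annotation of GRCm38, which gave 37 of the 55487 genes measured. The animals were male C57BL6/J mice that, by the sample records, were 10 weeks old when they began 8 weeks on a diet with 60% of energy from fat (the study's methods give a younger age and a shorter feeding period). They then ate either a high-fat standard-protein diet (SP) or a high-fat high-protein diet (HP) and received vehicle or G108, a long-acting glucagon receptor agonist, at 2.5 nmol/kg by daily subcutaneous injection for 22 days. Livers were taken after a 4 h fast, on day 25 by the records and earlier by the methods. The 4 groups are named by treatment and diet (vehicle SP and vehicle HP, then G108 SP and G108 HP) and had 4 mice with 1 library each, so all groups were obese males of a single strain and no lean or chow-fed control was part of the comparison.

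Mitochondrial DNA is a small circle that is transcribed on both strands into long precursor RNAs. In most places a tRNA lies between mRNAs or rRNAs, and cutting the tRNAs out releases the RNAs on either side. The mRNAs encode core subunits of respiratory complexes I, III, IV and V, the rRNAs form the mitochondrial ribosome and the tRNAs serve translation inside the organelle, while all remaining proteins of these systems are encoded in the nucleus. Liver is rich in mitochondria, which carry out fatty acid oxidation and the first steps of the urea cycle.

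Of the 37 genes, 28 lie on the plus strand of the reference and are called heavy-strand genes here, and 9 lie on the minus strand and are called light-strand genes. The light-strand genes are mt-Nd6 and the tRNAs mt-Tq, mt-Ta, mt-Tn, mt-Tc, mt-Ty, mt-Ts1, mt-Te and mt-Tp. The tRNAs are 59 to 75 bases long and the mRNAs 204 to 1824 bases, and the genes cover 15422 bases from the first to the last. The tRNAs on which the results turn are given as they appear in the GENCODE transcripts of GRCm38, 5′ to 3′ in DNA letters, with the anticodon in capitals. The first pair, mt-Ts1 (tRNA for serine, chrM:6870-6938, minus strand) and mt-Te (glutamate, chrM:14071-14139, minus strand), held most of the tRNA signal.
mt-Ts1: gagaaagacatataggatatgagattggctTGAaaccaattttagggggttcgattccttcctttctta
mt-Te: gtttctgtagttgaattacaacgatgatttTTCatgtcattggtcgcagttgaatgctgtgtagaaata
The next, mt-Td (aspartate, chrM:6942-7011, plus strand), had the highest mean TPM of the heavy-strand tRNAs and lies 3 bases from mt-Ts1 on the opposite strand.
mt-Td: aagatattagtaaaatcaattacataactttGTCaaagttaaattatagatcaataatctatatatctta
The following 3 tRNAs lie side by side on the plus strand (chrM:11546-11612, chrM:11613-11671 and chrM:11671-11741) and varied together from mouse to mouse. They carry histidine, serine and leucine.
mt-Th: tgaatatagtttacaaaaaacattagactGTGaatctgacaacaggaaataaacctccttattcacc
mt-Ts2: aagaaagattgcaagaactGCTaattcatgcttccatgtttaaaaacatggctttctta
mt-Tl2: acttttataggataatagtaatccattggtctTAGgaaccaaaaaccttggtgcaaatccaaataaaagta
The last, mt-Ta (alanine, chrM:5018-5086, minus strand), begins a cluster of light-strand tRNAs that was low relative to mRNA with G108.
mt-Ta: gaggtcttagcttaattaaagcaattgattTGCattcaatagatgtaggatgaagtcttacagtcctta

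Reads that cover adjoining genes matter for such a compact genome. Of neighbouring genes, 9 pairs overlap on the map, and the longest overlap is the 43 bases in which the start of mt-Atp6 lies inside the end of mt-Atp8 (chrM:7927-7969, plus strand). The start codon of mt-Atp6 and the stop codon of mt-Atp8 are in capitals.
mt-Atp8 and mt-Atp6: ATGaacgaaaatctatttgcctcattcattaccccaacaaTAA
Another 7 bases are shared by mt-Nd4l and mt-Nd4 (chrM:10167-10173), and mt-Nd5 and mt-Nd6 overlap by 14 bases on opposite strands. Whether a read that touches a pair of genes was counted for 1, both or neither, and whether counting used the strand, is not given in the sources used here. The values of overlapping or adjoining genes, and of opposite-strand neighbours such as mt-Co1 with mt-Ts1 or mt-Nd5 with mt-Nd6, are therefore uncertain in how their reads were divided. It is also not given whether rRNA was depleted or polyadenylated RNA selected.

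Values are TPM, in which reads are divided by gene length and each library is scaled to the same total, so that levels of long genes can be compared. Nothing corrects for reads that reach past the ends of a short gene. The TPM of a tRNA is therefore a level per length of its gene, and mature tRNA was not measured apart from its precursors or neighbours. Between 27.8 and 45.0 M reads per library could be recovered from the TPM steps, and 1.99 to 6.13 M of them fell on mitochondrial genes. Such depth limits counting error only, and the spread between mice is given as SD over 4 mice. All 5 hepatocyte markers examined (Alb, Apoa1, Ttr, Cps1 and Serpina1a) were present in every group. Their summed level was 15477 to 32761 TPM in vehicle SP, 24130 to 33510 in vehicle HP, 32457 to 52643 in G108 SP and 20617 to 38781 in G108 HP mice. Red blood cell markers summed to 605 to 2106 TPM in vehicle SP, 871 to 1389 in vehicle HP, 946 to 1376 in G108 SP and 1009 to 2003 in G108 HP mice. For HP against SP with G108, 4 of 5 of them were above 0 with 0 called, and their median was 0.21 (0.65 after the scaling described next) beside -0.35 (-0.01) for all genes. Their part in the mitochondrial values was not tested. Over all libraries, Kupffer cell markers summed to 26.8 to 93.0, stellate cell markers to 7.17 to 19.2 and adipocyte markers to at most 2.38, while 0 of 5 skeletal muscle markers reached a mean of 1 TPM in any group. In bulk tissue, fewer cells of a type and less RNA per cell cannot be told apart.

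A second quantity bears on every fold change below. The 49 Mup genes, which encode major urinary proteins made by hepatocytes, took 35.7 to 49.7% of TPM in vehicle mice and 18.2 to 29.6% in G108 mice. With a fixed total, the 11839 genes tested had a median log2 fold change of 0.60 when G108 was set against vehicle on SP and 0.09 when it was set against vehicle on HP. Setting HP against SP in G108 mice gave -0.35. Each comparison is therefore given both on TPM as deposited and after median-of-ratios scaling, in which each library is divided by the median of its ratios to a reference over 17705 genes, and the medians of all genes became 0.00, -0.01 and -0.01 in that order. Class and member values after a rescaling that leaves out the Mup genes are given at the end. The part of the Mup genes as a cause of any mitochondrial result was not tested.

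No mitochondrial gene was at 0 in any library, and all 37 had a mean of at least 1 TPM. Mitochondrial genes held 13.8 to 37.3% of TPM and 5.80 to 19.5% of recovered reads. Read against length, the classes looked very different on these scales. The mRNAs took 92.4 to 94.7% of mitochondrial reads, the tRNAs 4.06 to 5.75% and the rRNAs 0.155 to 1.89%. Because tRNAs are short, the same tRNA reads made up 34.5 to 43.5% of mitochondrial TPM.

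The mRNA class was highest in G108 HP mice. The 13 mRNAs summed to 9.92, 9.61, 8.49 and 14.1% of TPM in vehicle SP mice 1 to 4 (mean 10.5 ± 2.45 SD, n = 4) and to 11.7, 10.4, 10.7 and 9.17% in vehicle HP mice (10.5 ± 1.04). They summed to 11.6, 12.90, 10.7 and 10.8% in G108 SP mice (11.5 ± 1.01) and to 13.2, 16.8, 23.6 and 12.95% in G108 HP mice (16.6 ± 4.96). Every G108 HP mouse lay above every vehicle HP and every G108 SP mouse, the nearest being 12.95% in G108 HP mouse 4 against 12.90% in G108 SP mouse 2, but vehicle SP mouse 4, at 14.1%, lay among the G108 HP mice. G108 HP mouse 3 stood apart at the top: it was the highest of all 16 libraries for 13 of 13 mRNAs, 17 of 22 tRNAs and both rRNAs. The mean log2 level of the class was 0.62 higher with G108 than with vehicle on HP (1.54-fold, pooled SD 0.30) and 0.49 higher on HP than on SP with G108 (1.40-fold, pooled SD 0.30). Without G108 HP mouse 3 these differences were 0.44 and 0.31. On SP, G108 and vehicle differed by 0.15 (pooled SD 0.24), and HP and SP with vehicle by 0.02, both within the spread of mice. After median-of-ratios scaling the difference on SP was -0.61, opposite in sign. Those on HP and between the diets with G108 were 0.49 and 0.93 (pooled SD 0.44 and 0.46). On that scale G108 HP mice overlapped with vehicle HP mice but lay above all G108 SP mice. As a share of recovered reads, they overlapped with both groups.

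The tRNA class followed the same order with more overlap. The 22 tRNAs summed to 6.03, 6.61, 5.24 and 9.73% of TPM in vehicle SP mice (6.90 ± 1.97) and to 8.90, 6.75, 7.02 and 5.91% in vehicle HP mice (7.15 ± 1.26). They summed to 9.10, 7.98, 6.15 and 5.74% in G108 SP mice (7.24 ± 1.57) and to 7.65, 10.5, 13.5 and 7.96% in G108 HP mice (9.89 ± 2.71). Groups overlapped in all 4 pairwise comparisons. The class was 0.45 higher on log2 scale with G108 on HP (pooled SD 0.32) and 0.44 higher on HP than on SP with G108 (pooled SD 0.35). The difference on SP was 0.08 on TPM and -0.68 after median-of-ratios scaling.

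The rRNA class was small and erratic among vehicle SP mice. The rRNAs summed to 0.121, 0.0100, 0.0648 and 0.147% of TPM in vehicle SP mice, to 0.141, 0.0839, 0.0883 and 0.0958% in vehicle HP mice, to 0.172, 0.144, 0.148 and 0.102% in G108 SP mice and to 0.145, 0.185, 0.230 and 0.0997% in G108 HP mice. Vehicle SP mouse 2 was far below all other mice, although its mRNA and tRNA sums were near those of its group. The log2 difference between G108 and vehicle on SP was 1.26 with a pooled SD of 1.27, and it was 0.41 without that mouse. HP against SP with vehicle gave 0.78 with it and -0.07 without it. With G108 the differences were 0.66 against vehicle on HP and 0.18 for HP against SP, and groups overlapped throughout.

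**Figure D1:**
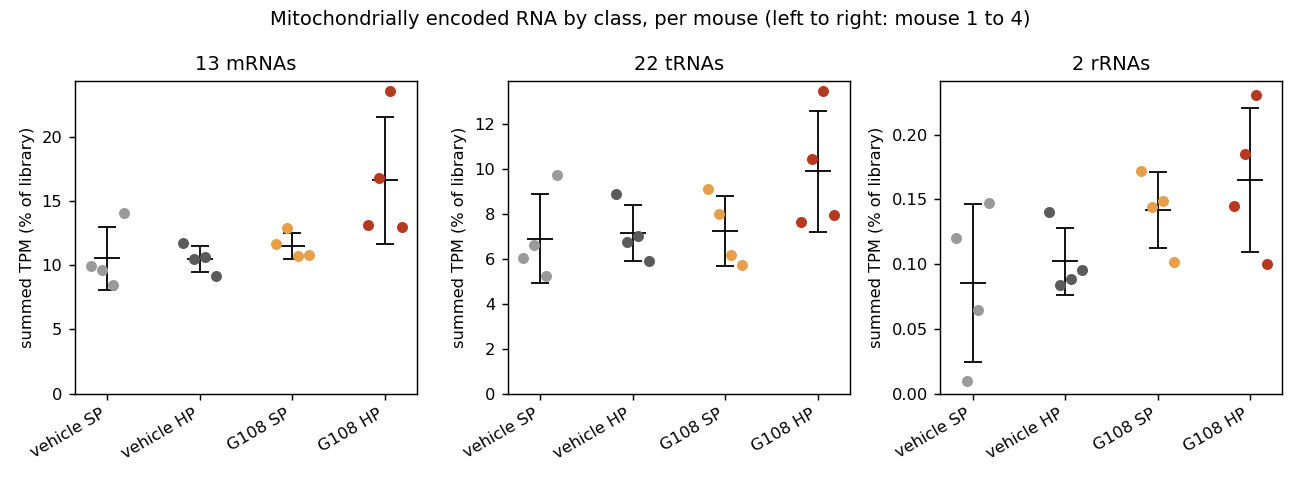
Summed TPM of the 13 mRNAs, 22 tRNAs and 2 rRNAs as percent of the library (y axes from 0) in each of the 4 groups (x axis), with points for mice 1 to 4 from left to right and bars for the mean ± SD. The mRNA sums of G108 HP mice, 12.95 to 23.6%, lie above those of vehicle HP and G108 SP mice, and vehicle SP mouse 2 has the lowest rRNA sum, 0.0100%.

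Among the mRNAs, those at the top and at the bottom differed between libraries. The mRNA with the highest level was mt-Co1 in 9 libraries, mt-Atp8 in 6 and mt-Atp6 in 1, and the lowest was mt-Nd3 in 14 and mt-Nd5 in 2. Mean levels per length ran from 1880 TPM for mt-Nd3 to 18487 TPM for mt-Co1, whose levels were close to the 18104 TPM of mt-Atp8 and the 17520 TPM of mt-Atp6. For mt-Co1, which encodes the catalytic subunit of cytochrome c oxidase (complex IV), levels were 14465, 13257, 12749 and 19963 TPM in vehicle SP mice and 18998, 16314, 17458 and 14351 TPM in vehicle HP mice. They were 18902, 19741, 15516 and 15707 TPM in G108 SP mice and 20000, 24383, 34162 and 19827 TPM in G108 HP mice. All G108 HP mice were above all vehicle HP and G108 SP mice, the nearest being 19827 against 19741 TPM. 

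For mt-Atp8, a small subunit of ATP synthase (complex V), levels were 13789, 14436, 13024 and 19841 TPM in vehicle SP, 16538, 15551, 15278 and 15029 TPM in vehicle HP, 15126, 17278, 16568 and 14678 TPM in G108 SP and 19716, 26225, 37048 and 19544 TPM in G108 HP mice. The G108 HP mice again lay above the vehicle HP and G108 SP mice and overlapped with vehicle SP through mouse 4 of that group. For mt-Cytb, the single mitochondrial subunit of complex III, they were 7566, 7323, 6240 and 10434 TPM in vehicle SP, 9045, 7973, 8358 and 6745 TPM in vehicle HP, 8627, 10004, 7765 and 8222 TPM in G108 SP and 9978, 12108, 17501 and 9758 TPM in G108 HP mice. Here G108 SP mouse 2 reached into the range of the G108 HP mice. For mt-Nd4, a membrane subunit of complex I, they were 6636, 6484, 5703 and 9354 TPM in vehicle SP, 6947, 6850, 7213 and 5930 TPM in vehicle HP, 7133, 8633, 6943 and 7272 TPM in G108 SP and 9281, 11268, 15705 and 8459 TPM in G108 HP mice. G108 HP lay above vehicle HP and overlapped with the other groups.

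The only light-strand mRNA, mt-Nd6, encodes another membrane subunit of complex I. Its levels were 3600, 3927, 3083 and 5596 TPM in vehicle SP, 3541, 4025, 3907 and 3406 TPM in vehicle HP, 3769, 5055, 3834 and 4603 TPM in G108 SP and 4438, 5630, 8501 and 4748 TPM in G108 HP mice. It made up 3.03 to 4.26% of mRNA TPM and was highest in G108 HP mice by group mean. Proportions between the complexes were lowest for complex I in vehicle HP mice. Per 100 TPM of complex IV mRNA, complex I mRNAs measured 84.6 ± 2.12 and 77.6 ± 7.17 TPM with vehicle on SP and on HP, and 84.3 ± 10.9 and 85.7 ± 2.87 TPM with G108 (mean ± SD, n = 4). Complex V measured 85.5, 82.6, 79.4 and 86.1 TPM and complex III 21.9, 21.5, 21.4 and 21.8 TPM in the same order.

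The rRNAs are the RNA of the small (mt-Rnr1) and the large (mt-Rnr2) mitochondrial ribosomal subunit. Levels of mt-Rnr1 were 646, 43.0, 342 and 887 TPM in vehicle SP, 841, 494, 509 and 549 TPM in vehicle HP, 1061, 845, 852 and 611 TPM in G108 SP and 838, 1059, 1338 and 587 TPM in G108 HP mice. Levels of mt-Rnr2 were 559, 57.2, 306 and 581 TPM in vehicle SP, 565, 345, 374 and 409 TPM in vehicle HP, 659, 595, 633 and 405 TPM in G108 SP and 611, 792, 966 and 410.4 TPM in G108 HP mice. Both were thus measured well below most mRNAs, although they are known as the most abundant products of the genome in most tissues, and vehicle SP mouse 2 was lowest for both. Between them lies mt-Tv, the tRNA for valine, with 16.4, 2.26, 18.4 and 36.7 TPM in vehicle SP mice, 2.26 TPM again being that of mouse 2.

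The tRNAs spanned a far wider range, from a mean of 8.96 TPM for mt-Tf (phenylalanine) to 48621 TPM for mt-Ts1. The tRNA with the highest level was mt-Ts1 in all 16 libraries, with 57.9 to 67.5% of tRNA TPM, and in 7 libraries it had the highest TPM of all genes measured. It measured 35826, 38830, 31156 and 63990 TPM in vehicle SP, 59745, 44090, 45522 and 35329 TPM in vehicle HP, 61455, 46242, 38876 and 35139 TPM in G108 SP and 47710, 66062, 80425 and 47534 TPM in G108 HP mice, with overlap of all groups. The tRNA mt-Te, at 9.00 to 17.5% of tRNA TPM, measured 8530, 8680, 7434 and 11738 TPM in vehicle SP, 8015, 8463, 8344 and 7364 TPM in vehicle HP, 9190, 13684, 9443 and 10018 TPM in G108 SP and 10227, 13491, 17782 and 10216 TPM in G108 HP mice. All vehicle HP mice lay below all G108 HP mice.

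Both of these tRNAs of high TPM face or adjoin an mRNA. The gene mt-Ts1 overlaps the end of mt-Co1 by 3 bases on the opposite strand, and its ratio to mt-Co1 was 2.24 to 3.25. The gene mt-Te adjoins mt-Nd6 on the same strand with no gap, and its ratio to mt-Nd6 was 2.09 to 2.71. On the heavy strand, mt-Td measured 1415, 1646, 1828 and 2081 TPM in vehicle SP, 2906, 2044, 2127 and 1891 TPM in vehicle HP, 2782, 2392, 245 and 1391 TPM in G108 SP and 811, 2889, 3797 and 2264 TPM in G108 HP mice. G108 SP mouse 3 and G108 HP mouse 1 were the lowest of all libraries for this tRNA, while their mRNA sums were 10.7 and 13.2% of TPM. The tRNA for glycine, mt-Tg, measured 1229, 1811, 959.7 and 943 TPM in vehicle SP, 1285, 1793, 1573 and 1102 TPM in vehicle HP, 2411, 1965, 1464 and 1351 TPM in G108 SP and 2068, 2208, 3898 and 2081 TPM in G108 HP mice. All G108 HP mice were above all vehicle HP mice. Of the 22 tRNAs, 6 had a mean under 500 TPM and 11 a mean of at least 1000 TPM, and mt-Tf rested on 4 to 30 reads per library and mt-Tv on 4 to 186, so their values carry the largest counting error.

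**Figure D2:**
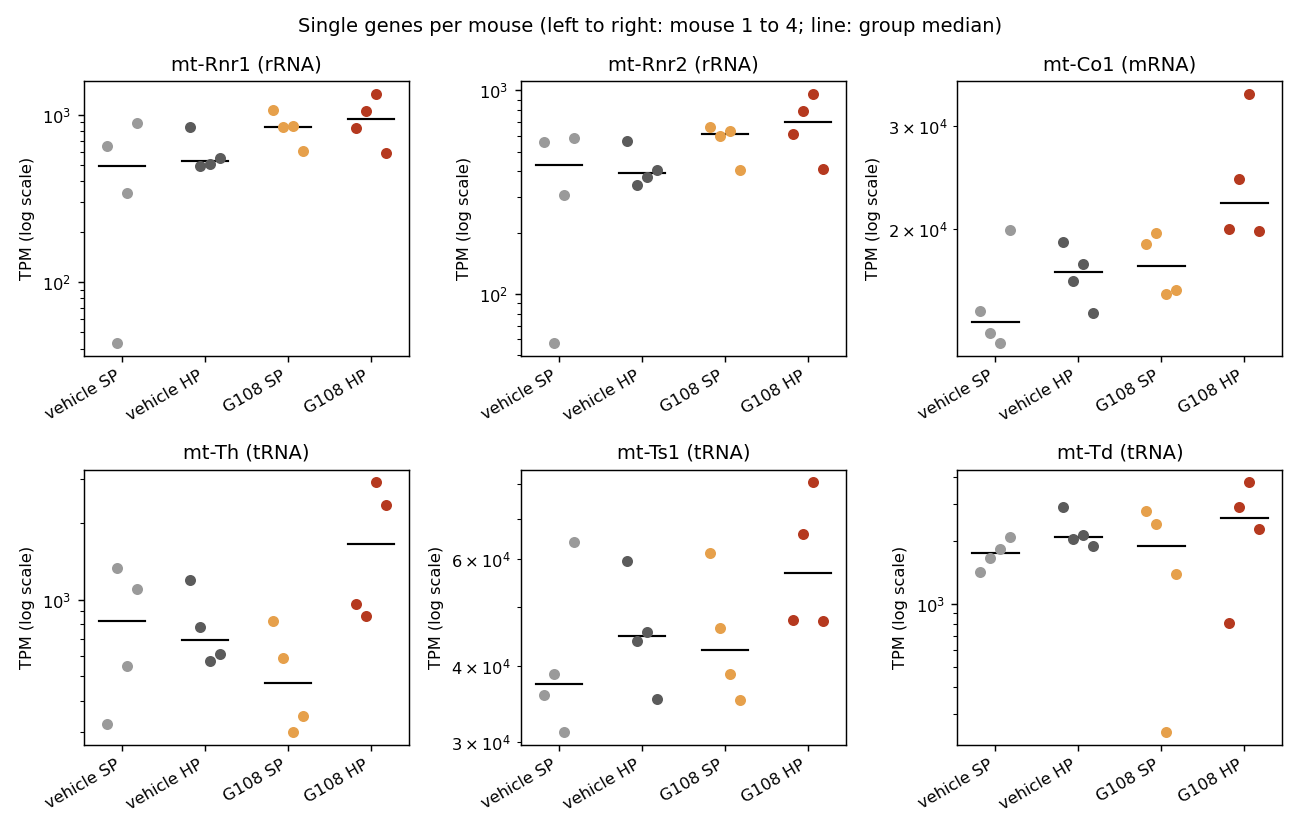
TPM per mouse (y axes, log scale) of mt-Rnr1, mt-Rnr2, mt-Co1, mt-Th, mt-Ts1 and mt-Td in the 4 groups (x axes), with points for mice 1 to 4 from left to right and lines at group medians. Vehicle SP mouse 2 is lowest for both rRNAs (43.0 and 57.2 TPM), and mt-Td falls to 245 TPM in G108 SP mouse 3.

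The first comparison asked what G108 did on the standard-protein diet. Fold changes are differences of log2(TPM + 1), given with their SE and with p adjusted by Benjamini-Hochberg over all 11839 genes in limma, and a gene was called at an adjusted p under 0.05. Members are cut from shared precursor RNAs and many varied together from mouse to mouse. Counts of members in this and the following comparisons are therefore not counts of independent results. On SP, 0 of 37 mitochondrial genes were called, beside 77.6% of all genes tested, and 2 of 37 (mt-Rnr1 and mt-Tf) were higher at an unadjusted p under 0.05, beside 79.1%. The fold change was above 0 for 23 of 37, beside 96.4%, and the median of the 37 was 0.12. The 37 thus held a smaller share of calls and of values above 0 than all genes tested. After median-of-ratios scaling 0 of 37 were called (2.64% of all genes), 3 of 37 were above 0 (50.5%), and 17 of 37 were lower at an unadjusted p under 0.05 (8.42%), with a median of -0.65. Groups did not overlap, with G108 lower, for mt-Atp8, mt-Ta, mt-Ti, mt-Tn, mt-Tq and mt-Tw on that scale, 6 genes beside 4.45% of all genes. The sign of most members on SP therefore depended on the scaling, while limma with voom on recovered reads also called 0.

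The members that departed most from their class on SP were the rRNAs and a few tRNAs. The fold change of mt-Rnr1 was 1.44 ± 0.65 on log2 scale (adjusted p = 0.0530 in limma) and that of mt-Rnr2 was 1.03 ± 0.54 (adjusted p = 0.0889). After median-of-ratios scaling these fold changes were 0.68 and 0.27. Both rest in part on the low vehicle SP mouse 2. With 77.6% of all genes called on SP, adjusted p lies close to unadjusted p, which was 0.041 for mt-Rnr1 and 0.073 for mt-Rnr2 in limma. Among tRNAs, mt-Tf gave 0.85 ± 0.39 (adjusted p = 0.0540 in limma), mt-Tv 0.68 and mt-Tg 0.55 ± 0.26, and after scaling these were 0.19, -0.04 and -0.21. The tRNAs mt-Th, mt-Ts2 and mt-Tl2 lay at the other end, with -0.58, -0.51 and -0.49 on TPM and -1.34, -1.27 and -1.25 after scaling. The mRNAs were closer together. The highest were mt-Nd1 (0.33), mt-Co1 (0.22) and mt-Nd4l (0.22) and the lowest mt-Nd3 (-0.06), mt-Atp8 (0.08) and mt-Atp6 (0.08), and all 6 were between -0.82 and -0.43 after scaling.

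The same question on the high-protein diet gave higher values for nearly all members. On HP, 36 of 37 fold changes were above 0, beside 70.4% of all genes, and the median of the 37 was 0.65. In limma 0 of 37 were called, beside 1.11% of all genes, and 22 of 37 were higher at an unadjusted p under 0.05, beside 10.2%. Groups did not overlap for 16 members, all with G108 higher, beside 7.67% of all genes. These were mt-Atp8, mt-Co1, mt-Co2, mt-Cytb, mt-Nd1, mt-Nd2, mt-Nd4, mt-Nd4l, mt-Nd5 and mt-Nd6 among mRNAs and mt-Te, mt-Tf, mt-Tg, mt-Tl1, mt-Tm and mt-Tp among tRNAs. After scaling, 34 of 37 were above 0 (47.7% of all genes), 4 of 37 were higher at an unadjusted p under 0.05 (5.52%), 0 were called (1.21%), and the median was 0.51. The number of members at that p was thus 22 on TPM and 4 after scaling. The number of members without overlap fell from 16 on TPM to 0 after scaling. Of all 11839 genes, 495 did not overlap with G108 higher after scaling, and 464 with G108 lower.

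Among the mRNAs, the 3 highest values on HP were of complex I. The fold change of mt-Nd2 was 0.82 ± 0.20 (adjusted p = 0.0694 in limma), of mt-Nd1 0.77 ± 0.21 (adjusted p = 0.0966) and of mt-Nd4l 0.74 ± 0.20 (adjusted p = 0.104). At the lower end of the mRNAs were mt-Co1 with 0.52 ± 0.19 (adjusted p = 0.241), mt-Co3 with 0.56 and mt-Atp6 with 0.58. The smallest adjusted p of any member, 0.0558, was that of mt-Tm, the tRNA for methionine, with 0.76 ± 0.18. The adjoining genes mt-Tm and mt-Nd2 thus gave similar values. Among tRNAs, mt-Th (1.03), mt-Tf (0.99) and mt-Ts2 (0.90) were highest but had adjusted p between 0.293 and 0.531 in limma. The light-strand tRNAs mt-Ta (0.03) and mt-Tn (0.09) and the heavy-strand mt-Td (-0.06) were close to 0 on TPM, and all 3 were below 0 after scaling. The rRNAs gave 0.65 for mt-Rnr1 and 0.67 for mt-Rnr2, within the spread of mice.

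Next, the diets were compared in mice given G108. All 37 fold changes of HP against SP were above 0, beside 5.55% of all genes. The median of the 37 was 0.48 beside -0.35 for all genes. No gene of any kind was called by limma (0% of all genes and 0 of 37), and 17 of 37 were higher at an unadjusted p under 0.05, beside 0.372% of all genes. That percentage stands for 44 genes, of which 17 were mitochondrial genes and 4 nuclear copies of them. Groups did not overlap for mt-Atp6, mt-Atp8, mt-Co1, mt-Co2, mt-Th, mt-Tk and mt-Tr, 7 genes beside 0.169% of all genes. After scaling, 37 of 37 were above 0 (48.1%), 28 of 37 were higher at an unadjusted p under 0.05 (2.77%), 14 did not overlap (2.09%), 0 were called (0%) and the median was 0.91. Leaving out G108 HP mouse 4 gave 18 calls in place of 0, all higher on HP, beside 0.262% of all genes called higher and 42.4% called lower in the same fit. Leaving out vehicle SP mouse 4 or G108 SP mouse 1 gave 7 each, all higher, beside 0.101 and 0.186% of all genes called higher and 14.6 and 25.3% called lower. Whether members, and genes in general, were called thus depended on which libraries entered the fit.

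The largest differences between the diets with G108 were those of 3 adjoining tRNAs. The fold change was 1.69 ± 0.49 for mt-Th, 1.63 ± 0.50 for mt-Ts2 (both adjusted p = 0.0728 in limma) and 1.61 ± 0.51 for mt-Tl2 (adjusted p = 0.0729). After scaling they were 2.13, 2.07 and 2.05. On TPM their unadjusted p in limma was 0.0031, 0.0050 and 0.0059. Adjusted p depends on all genes tested, of which 45% passed an unadjusted p under 0.05 here, 44.6% being lower on HP. Adjusted values of members with different unadjusted p therefore lie close together. Levels of mt-Th were 824, 591, 301 and 349 TPM in G108 SP and 958, 860.2, 2902 and 2352 TPM in G108 HP mice. In vehicle mice they were 322, 1331, 546 and 1097 TPM on SP and 1196, 779, 571 and 609 TPM on HP. The G108 groups did not overlap, but vehicle SP mice, at 322 to 1331 TPM, overlapped with both of them. G108 HP mice 3 and 4 were well above mice 1 and 2 and above all vehicle mice. Next were mt-Tv with 1.17 ± 0.59 (adjusted p = 0.124 in limma), mt-Tk (lysine) with 1.10 ± 0.33 and mt-Tr (arginine) with 1.02 ± 0.28, the latter with the smallest adjusted p of any member (0.0721 in limma). Among mRNAs, mt-Atp8 (0.64 ± 0.19, adjusted p = 0.0728), mt-Nd3 (0.61) and mt-Nd4 (0.54 ± 0.19, adjusted p = 0.0777) were highest, and mt-Co3 (0.38), mt-Nd6 (0.40) and mt-Nd5 (0.41) lowest. The light-strand tRNAs mt-Tc (0.15), mt-Ty (0.16) and mt-Tn (0.20) and the rRNAs mt-Rnr1 (0.14) and mt-Rnr2 (0.23) differed least.

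In mice given vehicle, no member passed either threshold between the diets. With 17 of 37 fold changes above 0, beside 80.4% of all genes, the median of the 37 was -0.02. Limma called 0 of 37 (0% of all genes), and 0 of 37 passed an unadjusted p under 0.05, beside 3.16% of all genes, with a smallest adjusted p of 0.727. After scaling 9 of 37 were above 0 (51% of all genes), 0 were called (0%) and the median was -0.21. The highest values were 1.09 for mt-Tv, 0.94 for mt-Rnr1 and 0.59 for mt-Rnr2, and the lowest was -0.29 for mt-Tq. Without vehicle SP mouse 2, which was low for these 3 genes, the first 3 were 0.39, 0.01 and -0.16.

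The interaction term tested whether the response to G108 differed between the diets. It was above 0 for 35 of 37 members, beside 6.61% of all genes, and the median of the 37 was 0.45 beside -0.49 for all genes. Limma called 0 of 37 (0% of all genes), and 7 of 37 were higher at an unadjusted p under 0.05, beside 0.304%. These were mt-Ti, mt-Tq, mt-Nd2, mt-Atp8, mt-Tr, mt-Nd4 and mt-Th. The term was 1.61 ± 0.69 for mt-Th (adjusted p = 0.0878), 0.66 ± 0.29 for mt-Nd2 (adjusted p = 0.0909) and 0.59 ± 0.26 for mt-Atp8 (adjusted p = 0.0934). Their unadjusted p in limma was 0.033, 0.037 and 0.039 in that order. The smallest adjusted p was 0.0806, for mt-Ti. After scaling 36 of 37 were above 0 (48.4%), 25 of 37 were higher at an unadjusted p under 0.05 (3.56%) and 0 were called (0%). A difference in the response between diets was therefore not called for any member. The 5 comparisons share groups and are not independent of each other. The study also reported on mitochondrial genes in these same mice, so the counts here are no independent evidence of a direction.

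**Figure D3:**
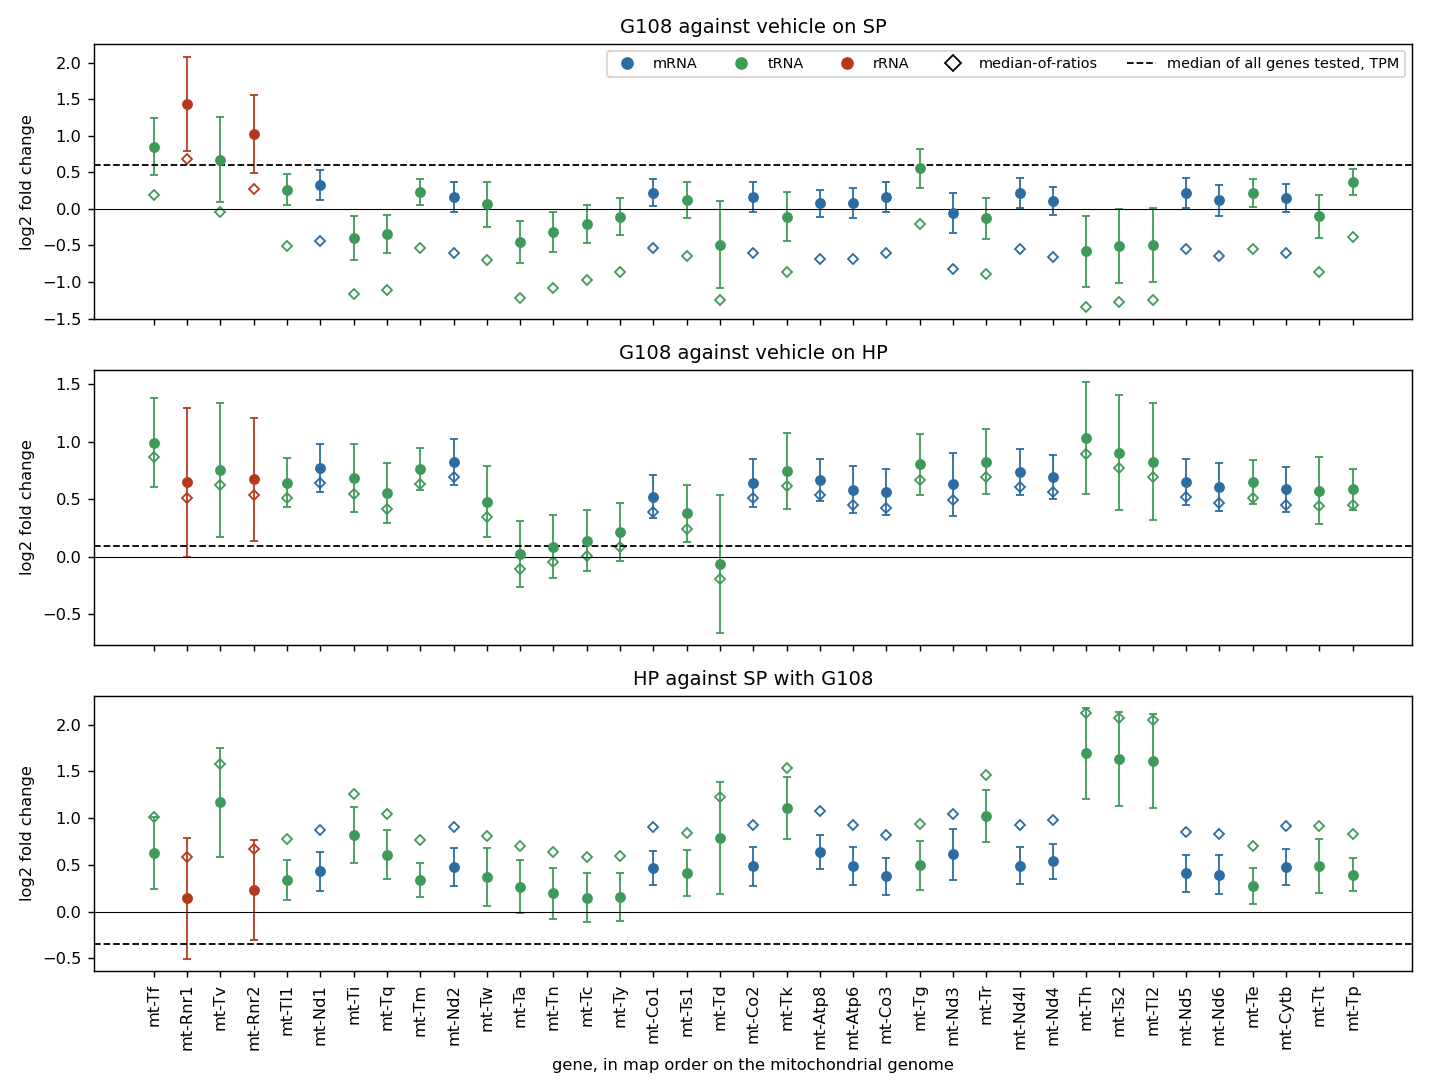
Log2 fold change (y axes) of each of the 37 genes in map order (x axis) for G108 against vehicle on each diet and, last, for the diets with G108, on TPM (filled points with SE, coloured by class) and after median-of-ratios scaling (open diamonds). Dashed lines mark the median of all genes tested on TPM, 0.60, 0.09 and -0.35, and the open diamonds lie below the filled points in the first panel and above them in the last.

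**Figure D4:**
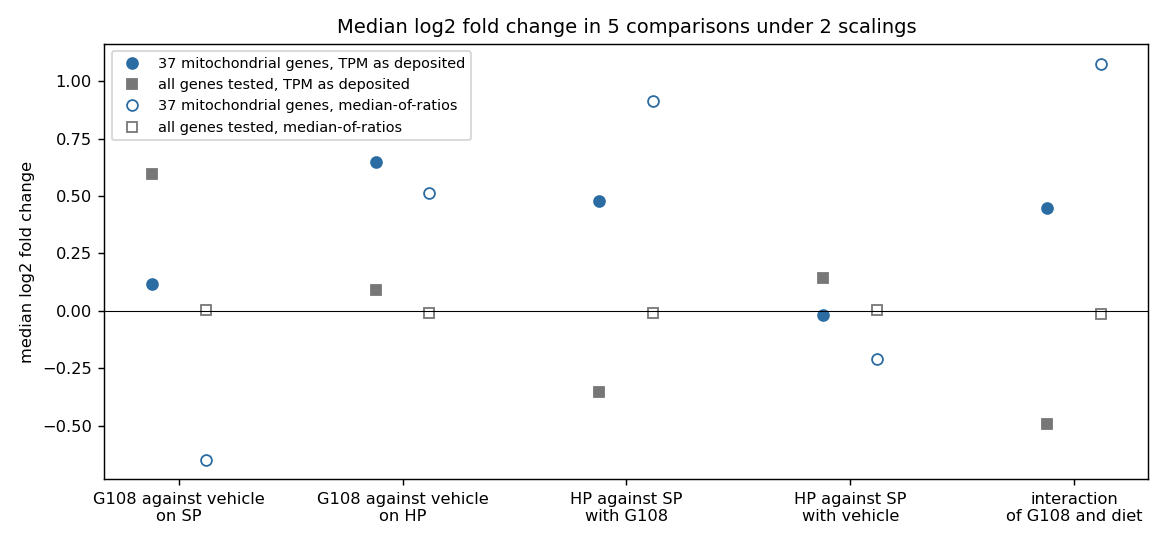
Median log2 fold change (y axis) of the 37 mitochondrial genes (circles) and of all genes tested (squares) in 5 comparisons (x axis), on TPM (filled) and after median-of-ratios scaling (open). On SP the median of the 37 is 0.12 and -0.65, on HP 0.65 and 0.51, and between the diets with G108 it is 0.48 and 0.91.

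Levels relative to the summed mRNA of the same library do not change with the scaling between libraries. The tRNA class measured 65.1 ± 4.43 TPM per 100 TPM of mRNA in vehicle SP, 67.8 ± 5.64 in vehicle HP, 62.6 ± 10.9 in G108 SP and 59.7 ± 2.45 in G108 HP mice, and the rRNA class 0.781 ± 0.488, 0.969 ± 0.189, 1.23 ± 0.246 and 0.987 ± 0.156 (SD, n = 4). Light-strand genes measured 56.3, 57.8, 55.4 and 49.6 TPM per 100 TPM of heavy-strand genes in the same order. On HP the groups did not overlap for either proportion. The tRNA class was 57.2 to 62.2 with G108 against 64.5 to 76.2 with vehicle, and light-strand genes were 46.3 to 53.5 against 54.8 to 62.5. Both proportions include mt-Ts1, the tRNA with the highest TPM, whose log2 ratio to mRNA differed by -0.25 on HP with overlapping groups. Without mt-Ts1 the tRNA class was 0.57 higher on log2 scale with G108 on HP, beside 0.45 with it and 0.62 for the mRNA class. The lower tRNA proportion on HP thus rested largely on this gene. The rRNA proportion overlapped between these groups, and no p was computed for these sums.

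Relative to the mRNA sum, a few single genes did not overlap between groups. On SP, mice given G108 were all below all mice given vehicle for mt-Ti (-0.55 on the log2 scale of the ratio to mRNA), mt-Tq (-0.50), mt-Ta (-0.61), mt-Tn (-0.47) and mt-Tc (-0.36), and all above for mt-Nd1 (0.17). On HP they were all above for mt-Nd1 (0.15) and all below for mt-Co1 (-0.10) and mt-Td (-0.69). On HP the light-strand tRNAs mt-Ta (-0.60), mt-Tn (-0.54), mt-Tc (-0.49) and mt-Ty (-0.41) were also lower on average, with overlapping groups. With vehicle, HP mice were all above SP mice for mt-Co1 (0.15) and all below for mt-Te (-0.18). These ratios are given as a description with no test. For 1 gene, random labels separate 4 mice fully from 4 with a probability of 0.0286, counting either direction. All 37 genes were examined in each comparison, and no share over all genes is given for this ratio.

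The 4 light-strand tRNAs mt-Ta, mt-Tn, mt-Tc and mt-Ty, for alanine, asparagine, cysteine and tyrosine, summed to 5.52 ± 0.608 TPM per 100 TPM of mRNA in vehicle SP, 4.86 ± 1.13 in vehicle HP, 4.25 ± 0.833 in G108 SP and 3.43 ± 0.707 in G108 HP mice. Across the 16 mice the SD of their log2 level relative to mRNA was 0.43, 0.40, 0.38 and 0.34, but the SD of the log2 ratio of each to the next was only 0.08, 0.06 and 0.06. These neighbours thus kept their proportions while their common level varied. The heavy-strand tRNAs mt-Th, mt-Ts2 and mt-Tl2 did so with a larger common spread, with SDs of 0.76, 0.77 and 0.78 and SDs of their ratios of 0.08 and 0.06. Their sum was 2.41 ± 1.36 TPM per 100 TPM of mRNA in vehicle SP, 2.49 ± 0.692 in vehicle HP, 1.44 ± 0.696 in G108 SP and 3.34 ± 1.85 in G108 HP mice.

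Not every neighbour moved together. The ratio of mt-Ts1 to mt-Td, 3 bases apart on opposite strands, had an SD of 0.80, and mt-Td relative to mRNA had an SD of 0.86. The ratio of mt-Nd4 to mt-Th, 1 base apart on the same strand, had an SD of 0.78. By contrast, mt-Ti and mt-Tq, which overlap by 3 bases on opposite strands, had SDs of 0.35 and 0.29 relative to mRNA and 0.15 for their ratio. For mt-Tm and mt-Nd2 the SD of the ratio was 0.13, and for mt-Nd6 and mt-Te 0.11. By class, the SD relative to mRNA was 0.036 to 0.22 for mRNAs, with mt-Cytb lowest, 0.14 to 1.01 for tRNAs and 0.77 to 0.98 for rRNAs. Single libraries weigh heavily in the largest of these. Vehicle SP mouse 2 lay at -3.51 from the mean for mt-Rnr1, -2.68 for mt-Rnr2 and -3.17 for mt-Tv. For mt-Td, G108 SP mouse 3 lay at -2.71 and G108 HP mouse 1 at -1.28. Each mRNA is also part of the sum it is set against, which lowers its SD. Since reads shared by neighbours may have been counted for both, and no setting is given, the part of shared reads in these ratios was not tested.

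**Figure D5:**
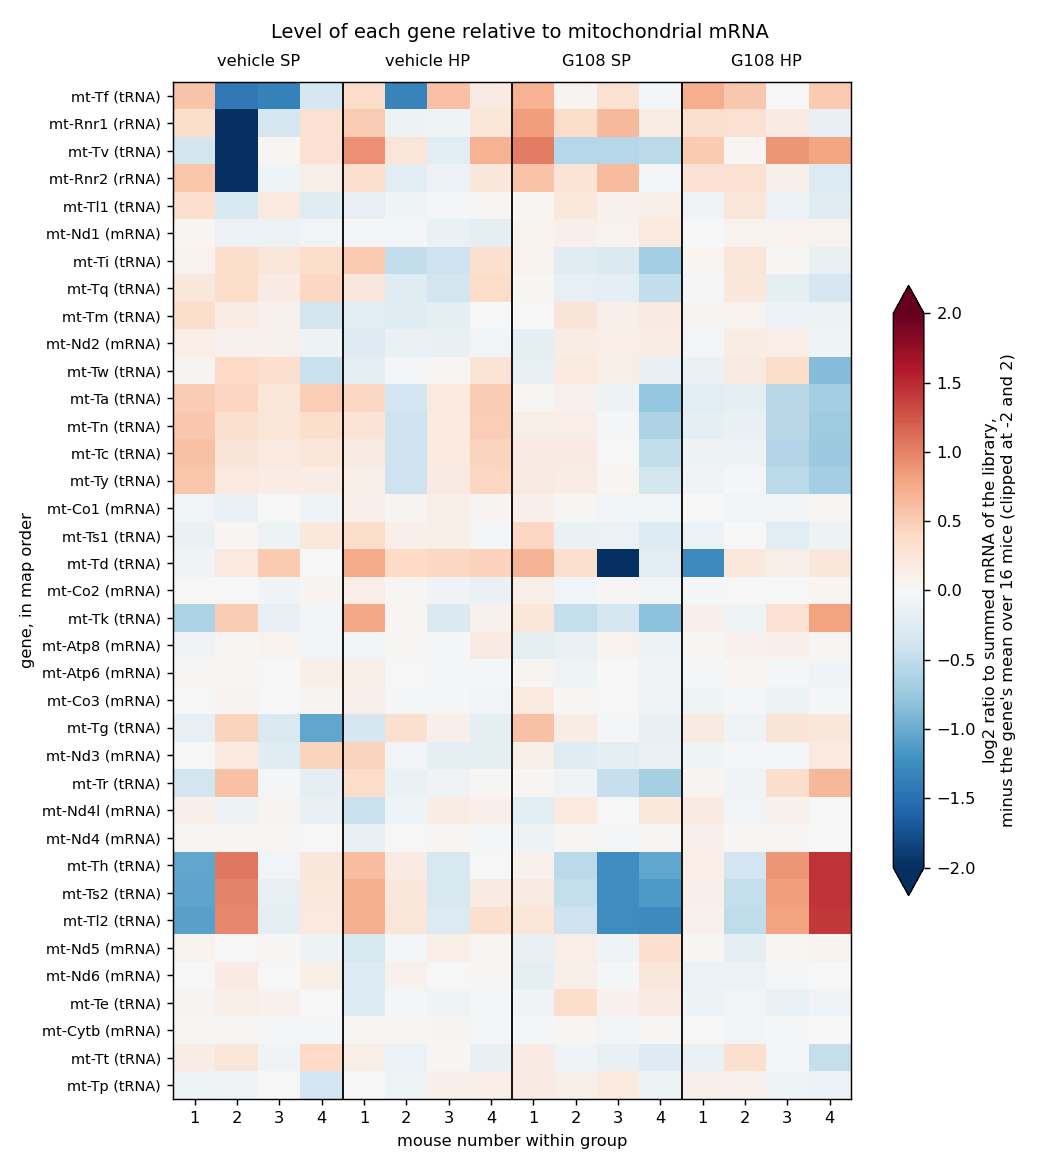
Log2 ratio of each gene (rows, map order) to the summed mRNA of its library, minus the gene's mean over 16 mice (colour, clipped at -2 and 2), in mice 1 to 4 of each group (columns). The tRNAs mt-Th, mt-Ts2 and mt-Tl2 share 1 pattern over mice, mt-Ta, mt-Tn, mt-Tc and mt-Ty another, and vehicle SP mouse 2 is low for mt-Rnr1, mt-Tv and mt-Rnr2.

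Ratios of 2 single genes, which need no scaling, were compared with a two-sided exact permutation test of 4 mice against 4, for which the smallest possible p is 0.0286. The p-values were adjusted over 15 tests (3 ratios in 5 contrasts). The ratio of mt-Rnr2 to mt-Rnr1 was 0.865, 1.33, 0.895 and 0.655 in vehicle SP mice, so that only vehicle SP mouse 2 had more TPM of the large-subunit rRNA. Its mean log2 ratio was 0.41 lower with G108 on SP in the exact permutation test (-0.41, p = 0.114, adjusted p = 0.713), and the interaction was 0.44 (exact p = 0.0686, adjusted p = 0.713). Without vehicle SP mouse 4 the first of these was -0.57, at the smallest p the exact test allows (0.0286). Without vehicle SP mouse 2 it was -0.23 instead. The p after leaving out a library is given without adjustment for the number of libraries left out in turn. The ratio of the light-strand mt-Nd6 to the overlapping heavy-strand mt-Nd5 differed by -0.10 with G108 on SP (exact p = 0.314) and by -0.05 on HP (exact p = 0.486). The ratio of mt-Co1 to mt-Rnr2 differed by -0.81 with G108 on SP (exact p = 0.314) and by -0.15 on HP (exact p = 0.457), and vehicle SP mouse 2 stood apart with a ratio of 231.6. After adjustment no ratio passed in any contrast, with adjusted p between 0.713 and 0.886.

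Nuclear copies of mitochondrial sequence bear on the mRNA values. On chromosome 1, between positions 24611535 and 24616197 of GRCm38, lie 7 annotated genes that share 97.2 to 100% of their 31-base words with mitochondrial genes. They are Gm10222 (copy of mt-Nd4l), Gm10925 (mt-Atp6), Gm28437 (mt-Co3), Gm28438 (mt-Nd3), Gm28439 (mt-Nd4), Gm28661 (mt-Co2) and Gm29216 (mt-Co1). Together they held 5.09 to 12.96% of TPM, and the mean level of Gm28437, 12320 TPM, was close to the 12402 TPM of mt-Co3. How reads that match both places were assigned is not given, so values of these 7 mRNAs are uncertain. The copies gave log2 fold changes of 0.41 to 0.78 with G108 on HP, where limma called 1 of 7 (1.11% of all genes). For HP against SP with G108 they gave 0.38 to 0.62, where it called 0 of 7 (0%). After median-of-ratios scaling these ranges were 0.27 to 0.64 and 0.81 to 1.06, with 0 of 7 called in either comparison (1.21 and 0% of all genes). The mRNAs with a copy differed as a sum by 0.60 with G108 on HP and those without a copy by 0.67, and by 0.47 and 0.52 for HP against SP with G108.

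The nuclear genes that transcribe and process mitochondrial RNA, and those that encode the other subunits of the same complexes, are set beside the mitochondrial genes here. On SP, limma called 41 of 47 tested genes of mitochondrial RNA transcription and maturation higher with G108, 34 of 36 for complex I, 8 of 9 for complex III, 10 of 11 for complex IV and 15 of 16 for complex V, beside 77% of all genes called higher. The list medians were 0.57, 0.66, 0.91, 0.67 and 0.86 in that order, beside 0.60 for all genes. After median-of-ratios scaling they were 0.01, -0.08, 0.17, -0.09 and 0.11, beside 0.00 for all genes. The largest in the first list was Ppargc1a, a transcriptional coactivator of mitochondrial biogenesis, which rose by 1.38 ± 0.16 (adjusted p = 8.1e-05 in limma). It was followed by Mrpl12 (1.16) and Nsun2 (1.00), a protein of the mitochondrial ribosome and an RNA methyltransferase. In the complexes, among the largest were Ndufv1 (1.17) and Ndufb9 (1.03) of complex I, Uqcrfs1 (1.07), Uqcrh (1.01) and Cyc1 (0.98) of complex III, Cox5a (1.08), Cox7a2 (0.94) and Ndufa4 (0.86) of complex IV and Atp5b (1.57), Atp5a1 (1.36) and Atp5f1 (1.16) of complex V. After median-of-ratios scaling Ppargc1a alone of these lists was called (adjusted p = 0.0028 in limma).

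On HP, Ppargc1a rose by 0.73 ± 0.16 (adjusted p = 0.0338 in limma, 0.0364 after scaling), while 0 genes of the complex lists were called. On TPM, 18 of 36, 2 of 9, 4 of 11 and 8 of 16 passed an unadjusted p under 0.05 for complexes I, III, IV and V. All of these were higher with G108, beside 10.2% of all genes higher at that p. After scaling 0 of 36, 0 of 9, 0 of 11 and 1 of 16 passed that p, beside 5.52% of all genes higher. For HP against SP with G108 limma called 0 genes in any of these lists, and 16 of 47 genes of transcription and maturation, all lower on HP, and 3, 1, 0 and 1 of the complex lists passed an unadjusted p under 0.05, beside 45% of all genes (44.6% lower). The medians were -0.31 for transcription and maturation, -0.20 for nuclear complex I, -0.37 for complex III, -0.25 for complex IV and -0.22 for complex V, beside -0.35 for all genes, while the 37 mitochondrial genes had 0.48. After scaling the same medians were 0.02, 0.23, 0.07, 0.19 and 0.21, beside -0.01 for all genes and 0.91 for the mitochondrial genes. The mitochondrial and nuclear genes of the same complexes thus had medians of opposite sign on TPM and of the same sign after scaling, and the difference between the lists was not tested.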

How the data were processed

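Liver total RNA of 16 mice was sequenced, 1 library per mouse. Per the submitters' processing notes and the study's methods, the authors checked reads with FastQC 0.11.8, aligned them to GRCm38 with HISAT2 2.0.5 and counted reads per gene with featureCounts. They computed TPM from counts and exon lengths, and these deposited TPM values, 16 columns with 0 left unused, are the only data used here. The authors also ran DESeq2 1.36.0 on read counts that were not used here. Groups came from the sample records.

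Symbols, coordinates, exon lengths and sequences came from the GENCODE annotation of GRCm38. The 37 members and all gene lists were chosen with earlier results of these data known. Reads per library were recovered from TPM steps: of 113146 values under 10 reads, 98.9% lay within 0.02 of a whole read. Genes with a mean of at least 1 TPM were tested on log2(TPM + 1) in limma 3.58.1 (R 4.3.3), with 1 mean per group, an intensity trend and Benjamini-Hochberg adjustment. A pseudocount of 1 understates changes of low genes. Ratios of single genes were compared by exact permutation, and class sums were described without a test. Calculations were tested on simulated data. Other calculations used Python 3.11.15 with numpy 2.4.6 and pandas 2.3.3.

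Named by rule were both rRNAs, mt-Nd6, the top mRNA of each complex and the top pair of tRNAs per strand with every mouse, up to 3 members of a class departing most from its median in either direction, and up to 3 nuclear genes with the largest called change per list, of which 1 is not reported here. Further members, named for group overlap, for position or as lowest in a class, were chosen after their values were seen. Alternatives covered pseudocount, filter, scaling, the libraries in the fit, the mouse number, voom on recovered reads and leaving out each library. The tRNA class without mt-Ts1 was added after seeing the data.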

Additional observations from a re-analysis of the deposited data

Results flagged for a closer look

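In 8 of 172 sets of 4 mice examined, 1 mouse lay farther from the nearest of the others than Dixon's criterion allows at 95%, where chance alone would mark about 1 set in 20. Vehicle HP mouse 1 was high for mt-Rnr1, with 840.55 TPM against 494 to 549 in the other mice of its group, and for mt-Tr, with 500.8 TPM against 312 to 337. Vehicle HP mouse 2 was low for mt-Ty, with 1085 TPM against 1661 to 1756. G108 SP mouse 1 was high for mt-Tv, with 50.02 TPM against 15.4 to 18.3, and G108 SP mouse 2 for mt-Tl1, with 1595 TPM against 1213 to 1274. G108 HP mouse 3 was high for mt-Tg, with 3898 TPM against 2068 to 2208, and for mt-Nd5, with 4527 TPM against 2512 to 2732. The ratio of mt-Co1 to mt-Rnr2 was 231.6 in vehicle SP mouse 2 against 25.9 to 41.7 in the other vehicle SP mice.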

How the results depend on the processing

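No member was called in any contrast in the reported analysis, and the pseudocount, the absence of a filter, the groups in the fit, median-of-ratios scaling and voom gave 0 calls as well. All calls below were of higher values, and the share of all genes called higher in the same fit stands beside each. A mean TPM of at least 5 gave 2 calls on SP (82.6%) and 1 on HP (1.06%), and rescaling TPM outside the mitochondrial genome gave 6 on HP (5.7%). Leaving out 1 library gave 0 to 5 calls on SP (5 without vehicle SP mouse 4, 72.3%, and 3 without vehicle SP mouse 1, 65.6%), 0 to 2 on HP (2 without vehicle SP mouse 4, 1.38%), 0 to 18 for HP against SP with G108 (18 without G108 HP mouse 4, 0.262%), 0 to 0 with vehicle and 0 to 6 for the interaction (6 without G108 HP mouse 4, 0.211%). In the last 2 fits named, 42.4 and 43.7% of all genes were called lower. Mouse numbers are shared between groups, and same-numbered mice correlated at -0.58 to 0.53 in their deviations, so they share only a number. With the mouse number as a replicate block 1 member (mt-Tf) was called on SP (75%) and 0 in the other contrasts, and mice did not all correlate best with their own number.

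Of the alternative values of class differences, 15 moved by more than the spread of mice and 214 did not. With median-of-ratios scaling and with TPM rescaled outside mitochondrial and Mup genes, mRNA gave -0.61 and -0.67 on SP, 0.93 and 0.94 for HP against SP with G108 and 1.10 and 1.18 for the interaction, and -0.24 with vehicle under the second. That second scaling also leaves out the nuclear copies of mitochondrial sequence. The tRNA class gave -0.68 and -0.73 on SP, 0.87 and 0.89 for HP against SP with G108 and 0.99 and 1.07 for the interaction, and the rRNA class 0.62 and 0.63 for HP against SP with G108. Under these 2 scalings signs reversed on SP for mt-Tv (-0.043, -0.060), mt-Tg (-0.21, -0.26), mt-Atp8 (-0.69, -0.74), mt-Atp6 (-0.68, -0.74), mt-Nd1 (-0.43, -0.49), mt-Co1 (-0.54, -0.59) and mt-Nd4l (-0.54, -0.60), and on HP for mt-Ta (-0.11, -0.088) and mt-Tn (-0.047, -0.027). Voom gave -0.10 for mt-Atp8 and -0.10 for mt-Atp6 on SP, and rescaling outside the mitochondrial genome gave 0.11 for mt-Td on HP. Of all 37 members, 20 changed sign on SP with median-of-ratios scaling. Without mt-Ts1 the tRNA class gave 0.02 on SP and 0.57 on HP.

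In the order SP, HP, HP against SP with G108, HP against SP with vehicle and interaction, leaving out 1 library gave log2 ranges of -0.57 to -0.23, -0.0029 to 0.047, 0.044 to 0.13, -0.50 to -0.16 and 0.25 to 0.59 for mt-Rnr2 to mt-Rnr1. Without vehicle SP mouse 4 its exact permutation p was 0.0286 on SP and with vehicle and 0.00857 for the interaction, and without vehicle HP mouse 4 the last was 0.0494. These p-values are given without adjustment for the number of libraries left out in turn. The ranges were -0.15 to -0.053, -0.093 to -0.010, -0.054 to 0.020, -0.12 to -0.019 and 0.0055 to 0.10 for mt-Nd6 to mt-Nd5 and -1.17 to -0.11, -0.29 to -0.071, 0.093 to 0.34, -0.78 to 0.27 and -0.038 to 1.02 for mt-Co1 to mt-Rnr2, the last changing sign without vehicle SP mouse 2 between diets with vehicle and for the interaction. For classes the ranges were 0.058 to 0.30, 0.44 to 0.73, 0.31 to 0.59, -0.078 to 0.17 and 0.29 to 0.58 for mRNA, -0.035 to 0.26, 0.28 to 0.56, 0.27 to 0.55, -0.045 to 0.25 and 0.18 to 0.48 for tRNA and 0.41 to 1.70, 0.47 to 0.88, -0.0018 to 0.40, -0.067 to 1.22 and -1.04 to 0.25 for rRNA. The median of log2 ratios gave 0.10 for mt-Co1 to mt-Rnr2 between diets with vehicle. Depth limits mt-Tf and mt-Tv, and the cause of these changes was not tested beyond the fixed total of TPM.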
